A study of Mus musculus with 6 samples.

Results

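The SMAD family comprises the intracellular transducers of the TGF-β superfamily, and its 8 mouse genes (Smad1, Smad2, Smad3, Smad4, Smad5, Smad6, Smad7 and Smad9) were followed across wild-type and Smad4-deficient intestinal organoids. The members were chosen by name, as the rows whose Ensembl gene ID carries one of these symbols, and all 8 were found among the 31227 genes of the table. Intestinal organoids are cultures of gut epithelium that form budding or cystic bodies in a gel, and 6 bulk RNA-seq libraries of mouse organoids were analysed. The 3 groups held 2 libraries each: wild type without added TGF-β (WT), Smad4-deficient without added TGF-β (Smad4 KO), and Smad4-deficient with TGF-β at 0.5 nM (Smad4 KO+TGFb). All groups were labelled 48 h and shared a medium with EGF at 50 ng/ml, Noggin at 100 ng/ml and R-spondin1 at 500 ng/ml. Noggin is a secreted antagonist that binds BMP ligands, and it was in the medium of every library, controls included. How far BMP signalling was restrained was not measured. The protocol in the labels can be read as TGF-β for 48 h in all, or as that period followed by 2 further days. No WT organoids given TGF-β were analysed here, so the TGF-β comparison was made in Smad4-deficient organoids only. The labels give neither the strain or age of the mice, nor the means by which Smad4 was inactivated, nor the part of the gene removed. Nor do they tie the replicates to separate cultures or animals, so p-values here speak for the spread between these libraries alone, and that spread may be technical.

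As background, TGF-β and activin receptors phosphorylate the receptor-regulated SMADs Smad2 and Smad3, whereas BMP receptors phosphorylate Smad1, Smad5 and Smad9. The phosphorylated proteins join the common SMAD, Smad4, enter the nucleus and act on target genes together with other DNA-binding factors. Smad6 and Smad7 are inhibitory SMADs that block receptors and recruit ubiquitin ligases, and both are transcribed in response to the pathway they restrain. In the intestinal epithelium TGF-β limits proliferation, BMP favours differentiation along the villus, and SMAD4 is a tumour suppressor that is lost in a share of human colorectal cancers and is mutated in the germ line in juvenile polyposis. Transcript levels, the quantity measured here, do not show phosphorylation or location of the proteins.

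The promoters of Smad3 and Smad6 are shown because these neighbouring genes on chromosome 9 carry opposite roles. Smad3 passed the test in every comparison and Smad6 in none, but Smad6 had deposited counts of only 37 to 150 per library. The log2 interval of Smad6 included the Smad3 change in Smad4 KO+TGFb against Smad4 KO (-0.56 to 1.70, beside 0.36). The same held in Smad4 KO+TGFb against WT (-1.21 to 1.01, beside 0.84). The 2 genes were not tested against each other. Each promoter is the 250 bases before the annotated start in RefSeq (GRCm38.p6), 5′ to 3′ along the gene, at chr9:63757995-63758244 (minus) for Smad3 and chr9:64022060-64022309 (minus) for Smad6. Capitals mark matches, on either strand, to the minimal SMAD-binding element GTCT or to the GC-rich SMAD motifs GGCGC and GGCCG.
Smad3: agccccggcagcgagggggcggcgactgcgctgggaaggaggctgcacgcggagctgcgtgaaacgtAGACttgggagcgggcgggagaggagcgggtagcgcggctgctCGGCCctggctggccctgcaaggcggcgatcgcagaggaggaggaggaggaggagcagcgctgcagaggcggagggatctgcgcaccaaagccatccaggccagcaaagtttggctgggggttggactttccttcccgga
Smad6: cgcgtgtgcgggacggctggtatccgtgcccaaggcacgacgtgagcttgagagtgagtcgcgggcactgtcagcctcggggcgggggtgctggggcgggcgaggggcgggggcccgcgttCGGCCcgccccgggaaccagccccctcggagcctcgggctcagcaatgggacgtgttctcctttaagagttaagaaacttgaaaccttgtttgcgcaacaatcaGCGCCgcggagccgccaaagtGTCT
The Smad3 window held 1 GTCT match, 1 GGCCG match and no GGCGC match, with a GC content of 69.2%. The Smad6 window held 1 match to each of the 3 motifs, with a GC content of 66.8%. Among the 32851 promoter windows of the same length in the RefSeq table, 82.9% held GTCT, 32% held GGCGC and 30.4% held GGCCG, so these short matches were common. The palindromic element GTCTAGAC, which contains GTCT, was in neither window and in 0.167% of all windows. GGCGC and GGCCG can overlap each other. Entries existed for 5 of the 8 members (Smad1, Smad3, Smad5, Smad6 and Smad9), and a match is a description of letters only.

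On GRCm38 (GENCODE vM21), Smad2 lies on chromosome 18 from 76241580 to 76310963 on the plus strand, Smad4 from 73639009 to 73703780 on the minus strand and Smad7 from 75367529 to 75395935 on the plus strand. Smad3 (63646767 to 63757994) and Smad6 (63953076 to 64022059) are neighbours on the minus strand of chromosome 9, separated by 195082 bp. Smad1 lies on chromosome 8 (79338395 to 79399518, minus), Smad5 on chromosome 13 (56703010 to 56742377, plus) and Smad9 on chromosome 3 (54755582 to 54801257, plus). No 50-base stretch of the annotated exons of any member occurred in another member, so reads of this length could be told apart between SMAD genes. For Smad5, 1.35% of exon bases overlapped another annotated gene, Gm27301, and for Smad9 0.169% of its 50-base stretches were also found in Gm45259 or Yipf1.

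Depth was alike across groups, with 40.55 to 50.7 M (1e+06) deposited units per library, or about 10.1 to 12.7 M fragments at about 4 units each. Replicates correlated at 0.9705 to 0.9757 (Pearson, log2 CPM across genes, which are not independent replicates) and libraries of different groups at 0.9231 to 0.9586, and no library stood apart from its group. The label of the cultures as epithelium was borne out by summed epithelial markers (6 genes, Epcam, Cdh1, Krt8, Krt18, Krt20 and Cdx2) of 5390 to 5430 CPM in WT, 7140 to 7190 in Smad4 KO and 9660 to 9780 in Smad4 KO+TGFb. Markers of 3 other tissues were near 0: at most 0.479 CPM for 6 fibroblast genes (Col1a2, Col3a1, Dcn and Lum at 0 in all libraries), 0.764 for 4 endothelial genes (Cdh5, Kdr and Emcn at 0) and 0.365 for 3 smooth muscle genes (Des at 0). The sum of 6 leukocyte genes (Cd79a at 0) reached 4.79 CPM. Most of it was Cd68, at 2.39 to 4.52 CPM in every library. Epithelial subtypes moved with the groups. All 6 enterocyte markers rose in Smad4 KO, from a summed 3280 to 3300 CPM in WT to 8770 to 8840, and stood at 6010 to 6040 in Smad4 KO+TGFb. All 4 crypt base stem cell markers fell in Smad4 KO, from a summed 4930 to 4970 CPM in WT to 2690 in each Smad4 KO library. The stem cell sum was 1440 in each Smad4 KO+TGFb library, where 3 of the 4 were lower than in Smad4 KO. The exception was Ascl2, at 23.8 and 16.9 CPM in Smad4 KO and 27.5 and 23.6 in Smad4 KO+TGFb. Paneth markers stood at 4850 to 4930, 1910 to 1970 and 1970 to 1980 CPM, goblet markers at 4270, 3310 to 3410 and 1740 to 1750, enteroendocrine markers at 749 to 760, 317 to 331 and 295 to 310, and tuft markers at 14.9 to 16.1, 7.02 to 9.39 and 6.43 to 6.59, in the same order of groups. Not every marker followed its sum: the Paneth gene Mmp7 was 136 CPM in both WT libraries, 101 and 112 in Smad4 KO and 190 and 203 in Smad4 KO+TGFb, where it was higher than in WT while the other 3 were lower. The enterocyte gene Slc5a1 was 580 and 560, then 930 and 937, then 448 and 460, and fell below WT with TGF-β. Sis did so by a small margin, at 1210 and 1220 in WT and 1180 and 1190 in Smad4 KO+TGFb. From Smad4 KO to Smad4 KO+TGFb, 4 of the 6 enterocyte markers were lower, but Vil1 was higher (881 and 874, then 1000 and 981). Alpi changed little between these groups (1330 and 1310, then 1270 and 1300). The part of these shifts in the SMAD results below was not tested, and in bulk RNA fewer cells of a type and less RNA per cell cannot be told apart.

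Smad4, the common SMAD and the targeted gene, matched the genotype labels in every library. The WT libraries held 99.4 and 109 CPM of it, against 21.7 and 23.1 in Smad4 KO and 25.2 and 29.5 in Smad4 KO+TGFb. Both Smad4-deficient groups lay far below WT, with no overlap, yet Smad4 transcript remained readily detected. Against WT, Smad4 KO was 4.67-fold lower (log2 -2.22 ± 0.1, where ± after a log2 fold change is its SE throughout; edgeR quasi-likelihood test, Benjamini-Hochberg adjusted p = 2.72e-05) and Smad4 KO+TGFb was 3.82-fold lower (-1.93 ± 0.1, adjusted p = 3.15e-05). Across the 14 alternative settings the first value ran from -2.32 to -2.15 and the second from -2.05 to -1.82, with every call kept. The TGF-β-treated libraries lay above the untreated ones without overlap, but the difference (0.29 ± 0.1, 95% interval 0.04 to 0.54, adjusted p = 0.115) did not pass. A count over the whole gene does not show which exons the remaining Smad4 reads came from.

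**Figure D1:**
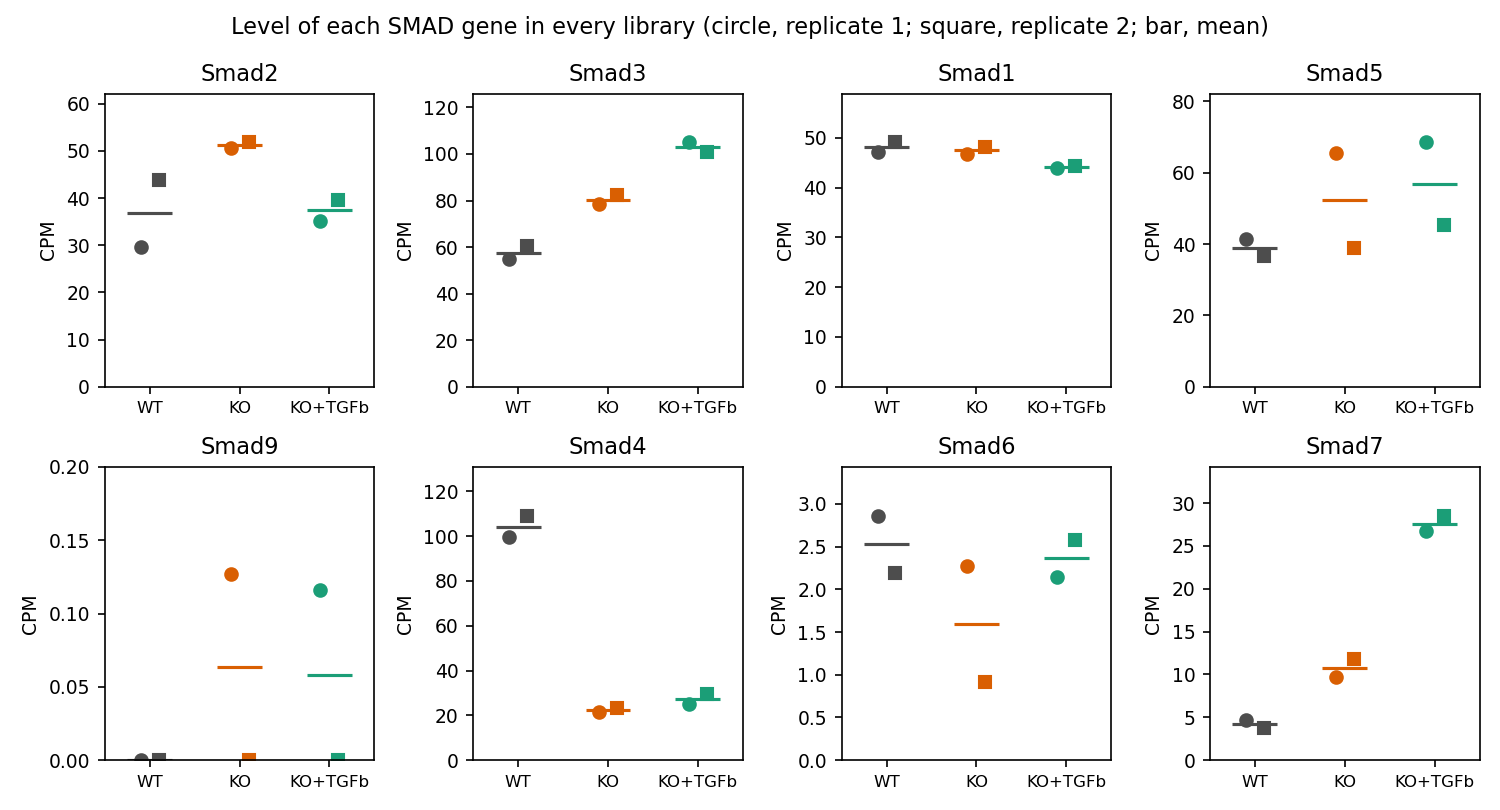
Level of each SMAD gene in every library, in TMM-scaled counts per 1e+06 (CPM, linear axes starting at 0, a separate scale for each gene). Circles are replicate 1, squares replicate 2 and bars the group mean. Smad4 drops from 99.4 and 109 in WT to 29.5 or less in the other libraries, whereas Smad3 and Smad7 step up from WT to Smad4 KO and again to Smad4 KO+TGFb.

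Smad3, which carries TGF-β and activin signals and binds DNA directly, rose in steps. Its level was 54.7 and 60.6 CPM in WT, 78.5 and 82.3 in Smad4 KO, and 105 and 101 in Smad4 KO+TGFb. The 3 groups did not overlap. Smad3 was 1.39-fold higher in Smad4 KO than in WT (log2 0.48 ± 0.072, adjusted p = 0.00375), 1.28-fold higher in Smad4 KO+TGFb than in Smad4 KO (0.36 ± 0.072, adjusted p = 0.0183) and 1.79-fold higher in Smad4 KO+TGFb than in WT (0.84 ± 0.072, adjusted p = 0.000226). The calls against WT were kept under all 14 alternatives. The call for TGF-β was lost when a library of either compared group was left out: the adjusted p was 0.09 without Smad4 KO replicate 1, 0.0588 without Smad4 KO replicate 2, 0.103 without Smad4 KO+TGFb replicate 1 and 0.0682 without Smad4 KO+TGFb replicate 2, with log2 values of 0.33 to 0.40.

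Smad2, the other receptor-regulated SMAD of the TGF-β branch, had the same fitted difference as Smad3 between Smad4 KO and WT but did not pass the test. It stood at 29.6 and 43.9 CPM in WT, 50.5 and 51.8 in Smad4 KO, and 35.2 and 39.6 in Smad4 KO+TGFb. The Smad4 KO libraries were the highest and the treated libraries lay within the WT range. The difference between Smad4 KO and WT was 0.48 ± 0.18 (95% interval 0.04 to 0.91, adjusted p = 0.0937), and that between Smad4 KO+TGFb and Smad4 KO was -0.45 ± 0.18 (-0.89 to -0.02, adjusted p = 0.155). Neither passed the test, and Smad4 KO+TGFb against WT gave 0.02 (-0.41 to 0.46, adjusted p = 0.929). The WT libraries differed widely, and the first difference was called when WT replicate 2 was left out (0.79, adjusted p = 0.00913) and by DESeq2 (adjusted p = 0.0365). The second was called in fits without WT replicate 1 (adjusted p = 0.0314), without WT replicate 2 (0.0319) and in a fit to the 4 compared libraries (0.0281).

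Among the receptor-regulated SMADs of the BMP branch, Smad1 had close replicates and no call. Its levels were 47.1 and 49.1 CPM in WT, 46.8 and 48.2 in Smad4 KO, and 44 and 44.3 in Smad4 KO+TGFb. The groups spanned a narrow range, with the treated libraries lowest. The interval of its difference was -0.18 to 0.14 (log2) for Smad4 KO against WT (adjusted p = 0.877), -0.27 to 0.06 for Smad4 KO+TGFb against Smad4 KO (adjusted p = 0.369) and -0.29 to 0.04 for Smad4 KO+TGFb against WT (adjusted p = 0.2).

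Smad5 varied most between replicates among the well-expressed members. It stood at 41.3 and 36.7 CPM in WT, 65.6 and 38.9 in Smad4 KO, and 68.5 and 45.3 in Smad4 KO+TGFb. In all 3 groups replicate 1 was the higher library, by least in WT, and Smad4 KO replicate 2 lay within the WT range. The differences were 0.42 ± 0.28 (-0.26 to 1.10, adjusted p = 0.313), 0.12 ± 0.28 (-0.55 to 0.80, adjusted p = 0.833) and 0.54 ± 0.28 (-0.13 to 1.22, adjusted p = 0.177) for Smad4 KO against WT, Smad4 KO+TGFb against Smad4 KO and Smad4 KO+TGFb against WT. The first ran from -0.01 without Smad4 KO replicate 1 to 0.75 without Smad4 KO replicate 2. The last was called with the replicate number as a block (0.51, adjusted p = 0.0458), although the numbers did not pair the samples.

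Smad9, the remaining BMP-branch member, was at the limit of detection. The deposited values were 0 in both WT libraries, 5 and 0 in Smad4 KO, and 5 and 0 in Smad4 KO+TGFb, all below 12 units, which stand for 3 fragments. That floor was 0.229 to 0.305 CPM per library and covers counting error only. Smad9 was removed by the filter on low counts, so 7 of the 8 members were tested.

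Smad7, the inhibitory SMAD that acts on TGF-β and BMP receptors alike, showed the largest rise among the members in every comparison. It stood at 4.72 and 3.79 CPM in WT, 9.75 and 11.8 in Smad4 KO, and 26.7 and 28.5 in Smad4 KO+TGFb, from 247, 166, 383, 476, 1156 and 1251 deposited units. The 3 groups were well apart. Smad7 was 2.53-fold higher in Smad4 KO than in WT (log2 1.34 ± 0.16, 95% interval 0.94 to 1.74, adjusted p = 0.0016). TGF-β added a step of similar size between the Smad4 KO groups, 2.56-fold (1.36 ± 0.16, 0.97 to 1.74, adjusted p = 0.00244), which brought Smad4 KO+TGFb to 6.48-fold above WT (2.70 ± 0.17, adjusted p = 5.81e-05). All 3 calls were kept under the 14 alternatives, with ranges of 1.19 to 1.51, 1.23 to 1.5 and 2.55 to 2.87.

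Smad6, the inhibitory SMAD that acts mainly on BMP receptors, stayed low and variable. Its levels were 2.86 and 2.19 CPM in WT, 2.27 and 0.917 in Smad4 KO, and 2.15 and 2.58 in Smad4 KO+TGFb, from 37 to 150 units per library. Smad4 KO replicate 2 was the lowest library and all groups overlapped. The differences were -0.67 ± 0.47 (-1.79 to 0.46, adjusted p = 0.332) for Smad4 KO against WT, 0.57 ± 0.47 (-0.56 to 1.70, adjusted p = 0.491) for Smad4 KO+TGFb against Smad4 KO, and -0.10 (-1.21 to 1.01, adjusted p = 0.891) for Smad4 KO+TGFb against WT. The interval of Smad6 included the change of Smad7 in Smad4 KO+TGFb against Smad4 KO (1.36), but not in the comparisons against WT (1.34 and 2.70). Without Smad4 KO replicate 1 the first value was -1.46 and without Smad4 KO replicate 2 it was -0.16.

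**Figure D2:**
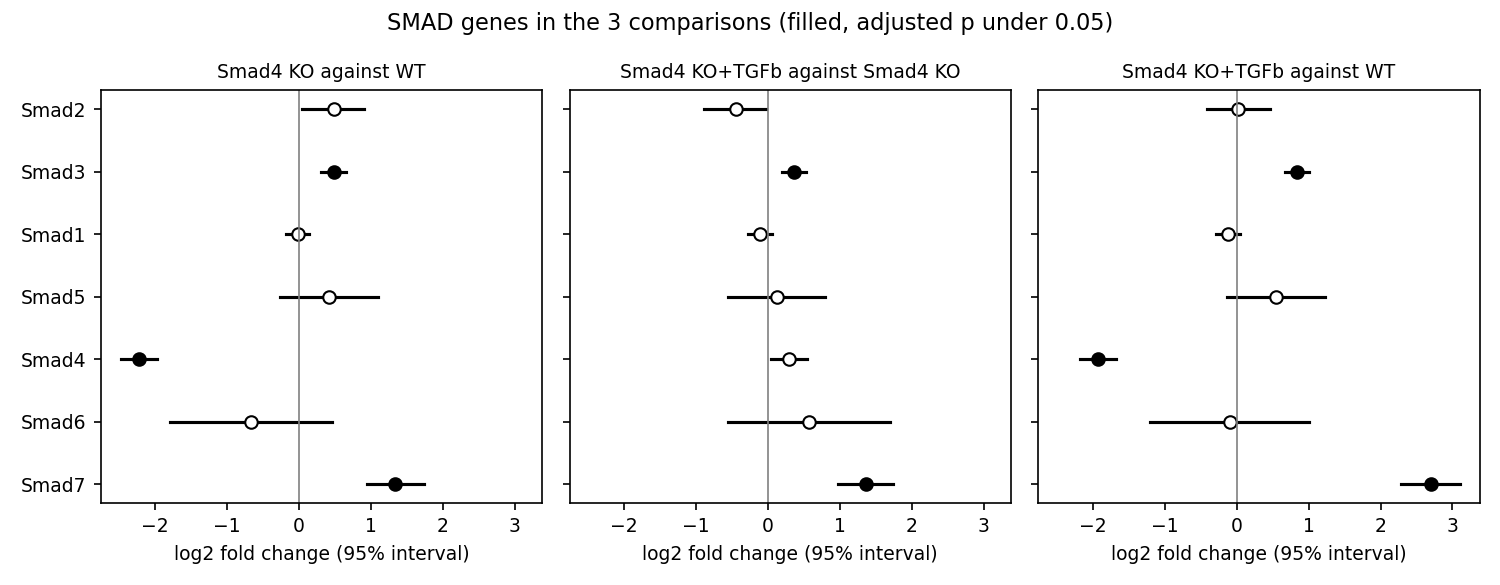
Log2 fold change of the 7 tested SMAD genes in the 3 comparisons, with 95% intervals from the edgeR fit; filled points passed an adjusted p of 0.05. Smad3 and Smad7 lie to the right of 0 in each panel, Smad4 lies at -2.22 and -1.93 against WT, and the intervals of Smad5 and Smad6 are wide.

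Counted over the family, 3 of the 7 tested members passed in Smad4 KO against WT, Smad3 and Smad7 higher and Smad4 lower, where 30.3% of all 15503 tested genes were called (16.9% higher, 13.4% lower). Of all genes, 2620 were higher and 2084 lower, but 2125 and 2926 when libraries were scaled by their totals alone. In Smad4 KO+TGFb against Smad4 KO, 2 members were higher (Smad3 and Smad7), where 16.3% of all genes were called (7.78% higher, 8.48% lower). No member was lower there by edgeR, 1 was at an unadjusted p under 0.05 (Smad2) and DESeq2 called 0. In Smad4 KO+TGFb against WT, 3 members passed, Smad3 and Smad7 higher and Smad4 lower, where 39.7% of all genes were called (20.7% higher, 19% lower). With 7 members, these shares are not set apart from the background. Smad4 is the targeted gene, so its calls against WT, counted here and included in the medians below, are no independent result about the family. The median log2 fold change of the tested members was 0.42, 0.29 and 0.02 in the 3 comparisons, beside -0.02, -0.01 and -0.02 over all tested genes. The comparisons share libraries (Smad4 KO is in the first and second, WT in the first and last), so the last is not independent evidence.

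To compare levels between genes, CPM was divided by the length of the annotated exons in kb. The order of the genes depends on the length chosen. For Smad1 the annotated exons cover 6262 bp and the longest coding transcript 3775 bp. For Smad3 these lengths are 5542 and 5090 bp, so the order of Smad3 and Smad1 in particular is not settled. In WT, Smad4 led with 28.1 ± 1.9 CPM per kb (SD, n = 2), followed by Smad3 at 10.4 ± 0.75, Smad1 at 7.69 ± 0.23, Smad5 at 5.26 ± 0.43, Smad2 at 4.19 ± 1.1, Smad7 at 0.941 ± 0.15 and Smad6 at 0.789 ± 0.15. Smad5 and Smad2 overlapped there, as did Smad7 and Smad6. Among all tested genes WT Smad4 was at the 88.5th percentile of level per kb and WT Smad7 at the 27th.

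The order changed in the deficient groups. In Smad4 KO, Smad3 led with 14.5 ± 0.48 CPM per kb, then Smad1 at 7.59 ± 0.16, Smad5 at 7.04 ± 2.6, Smad4 at 6.02 ± 0.27, Smad2 at 5.83 ± 0.11, Smad7 at 2.38 ± 0.32 and Smad6 at 0.496 ± 0.3. Smad5 overlapped Smad1, Smad4 and Smad2, and Smad4 overlapped Smad2. In Smad4 KO+TGFb, Smad3 led with 18.6 ± 0.55, then Smad5 at 7.67 ± 2.2, Smad4 at 7.37 ± 0.82, Smad1 at 7.06 ± 0.036, Smad7 at 6.11 ± 0.28, Smad2 at 4.26 ± 0.36 and Smad6 at 0.738 ± 0.094. Smad5 overlapped Smad4, Smad1 and Smad7 there, and Smad4 overlapped Smad1. Per kb, Smad7 thereby passed above Smad2 in both treated libraries. In CPM not divided by length it stayed below Smad2 there (26.7 and 28.5, beside 35.2 and 39.6). By level per kb, Smad7 reached the 55.9th percentile of tested genes, while Smad4 stood at the 60.4th and Smad3 at the 80.7th.

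Expressed as shares of the summed SMAD level per kb, Smad4 made up 49% ± 0.51 of the pool in WT, 13.7% ± 1.1 in Smad4 KO and 14.2% ± 1.9 in Smad4 KO+TGFb (SD, n = 2 each). In the same order, the TGF-β-branch receptor SMADs made up 25.4% ± 1.8, 46.4% ± 3 and 44.2% ± 0.64, and the BMP-branch members stood at 22.6% ± 1.7, 33.3% ± 4.3 and 28.4% ± 3.6. As the Smad4 share falls, the combined share of all other members, the inhibitory SMADs included, must rise. The inhibitory SMADs went from 3.03% ± 0.69 in WT to 6.57% ± 0.28 and 13.2% ± 1. The summed level itself was 55 and 59.7 CPM per kb in WT, 45 and 42.8 in Smad4 KO, and 52.7 and 51 in Smad4 KO+TGFb.

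Ratios within each library do not depend on the sum. Smad4 relative to the summed receptor SMADs was 1.02 and 1.03 in WT, 0.161 and 0.184 in Smad4 KO, and 0.173 and 0.221 in Smad4 KO+TGFb. Smad7 relative to the same sum was 0.0396 and 0.0292, then 0.0595 and 0.0774, then 0.15 and 0.176. The 3 groups were in separate ranges for Smad7. Smad3 relative to Smad2 was 2.93 and 2.19 in WT, 2.46 and 2.52 in Smad4 KO, and 4.75 and 4.05 in Smad4 KO+TGFb, so the treated libraries alone stood apart. Smad7 relative to Smad6 was 1.17 and 1.23, then 3.05 and 9.12, then 8.81 and 7.85, with the spread in Smad4 KO set by the low Smad6 values. Shares and ratios are given as values with no test. An exact permutation test of 2 against 2 libraries cannot give a 2-sided p below 0.333.

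**Figure D3:**
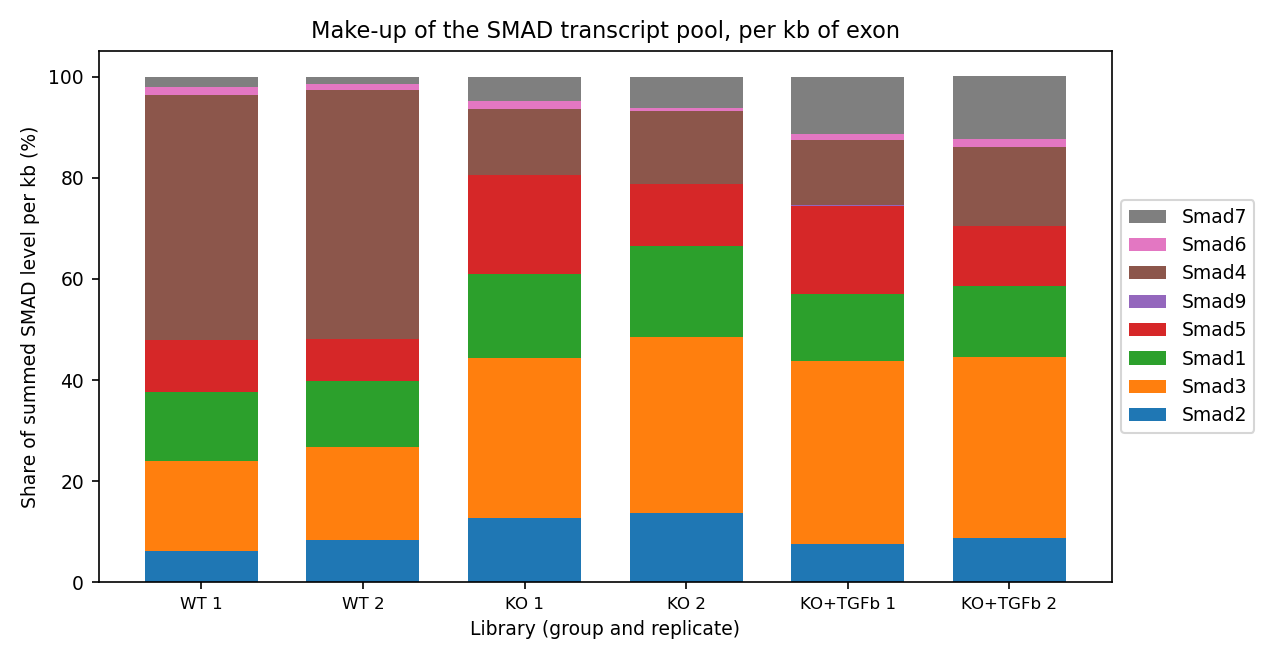
Share of each SMAD gene in the summed SMAD level per kb of exon, in percent, for each of the 6 libraries. Smad4 fills 48.6% and 49.4% of the WT bars and 12.9% to 15.6% of the others, while Smad7, at the top, is widest in the TGF-β-treated libraries.

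The genes whose profile over the 6 libraries lay nearest to each member were found by the Euclidean distance between log2 CPM profiles centred on their own mean, among 13515 named genes. Nearest to Smad7 were Wwc2, at 10.4 and 9.13 CPM in WT, 24.4 and 24.5 in Smad4 KO and 63.8 and 60.7 in Smad4 KO+TGFb (distance 0.239), and Ecm1, which encodes an extracellular matrix protein (0.35). Nearest to Smad4 were Fzd1, a WNT receptor (0.343), and Ass1, argininosuccinate synthase (0.345). Fzd1 stood at 10.8 and 9.72 CPM in WT, 2.39 and 2.78 in Smad4 KO and 2.5 and 3.15 in Smad4 KO+TGFb. Few genes came close to these profiles, with 9 within a distance of 0.5 of Smad7 and 7 of Smad4. Smad6 and Smad5, which varied between replicates and were not called, also had few (10 and 34). For Smad3, by contrast, 1027 genes were as close, the nearest being Unc5cl (0.106) and the amino acid transporter Slc38a2 (0.118), whose level went from 237 and 250 CPM in WT to 331 and 330 in Smad4 KO and 433 and 448 in Smad4 KO+TGFb.

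The profiles of the remaining members were likewise matched. Smad2 lay nearest to Parp11 (0.156) and Trip11 (0.223), and Trip11 repeated its peak in Smad4 KO with 56.8 and 71.9 CPM in WT, 87.3 and 87 in Smad4 KO and 67.4 and 67.1 in Smad4 KO+TGFb. Smad1 lay nearest to Sipa1l1 (0.0373) and Phf7 (0.0414), with 5230 genes within 0.5, as for any nearly flat profile. Smad5 lay nearest to Dnajc14 (0.317) and Snhg11 (0.32), and Smad6 to Lrp11 (0.362) and Thnsl1 (0.394). These distances describe 6 libraries of 3 groups and are given with no test.

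**Figure D4:**
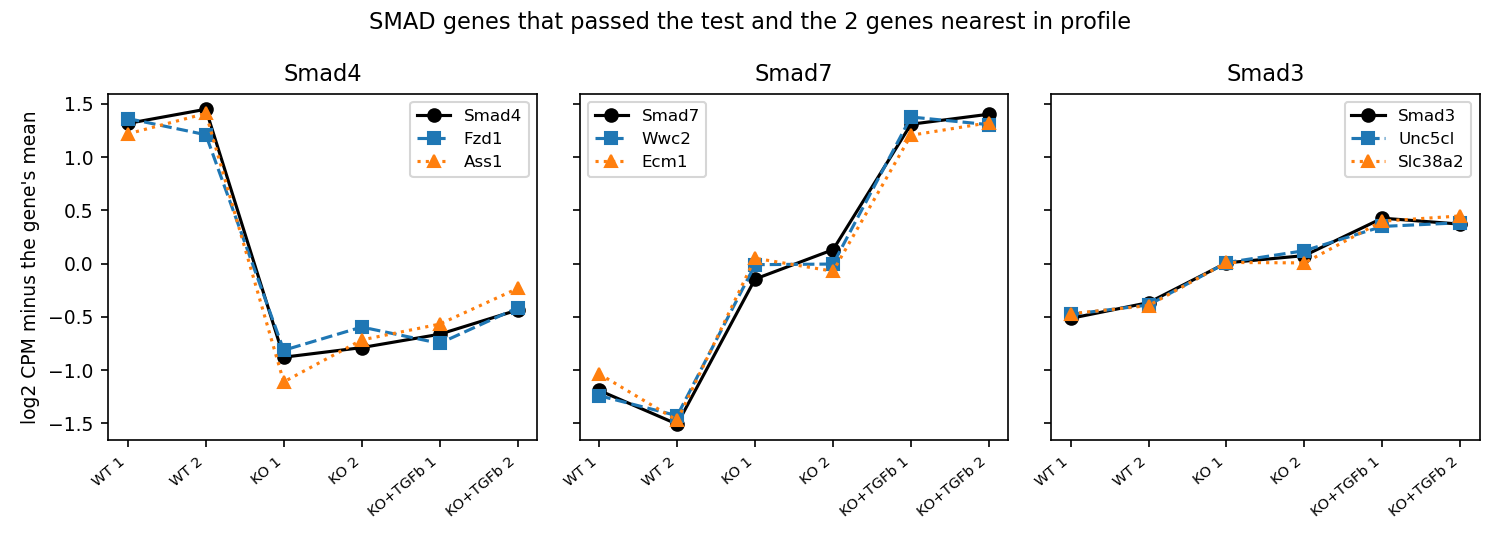
Log2 CPM minus the gene's own mean in the 6 libraries, for Smad4, Smad7 and Smad3 and, for each, the 2 genes nearest in profile. Wwc2 and Ecm1 climb with Smad7 in both steps, and Fzd1 and Ass1 drop with Smad4.

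The nearest protein-coding genes on each side of the members gave 14 neighbours that are not SMADs, of which 12 were tested, beside 30.3%, 16.3% and 39.7% called among all genes in the 3 comparisons. By edgeR, 0 of the 12 passed in Smad4 KO against WT (2 at an unadjusted p under 0.05, 1 in each direction, and 0 by DESeq2) and 0 passed in Smad4 KO+TGFb against Smad4 KO (2 at an unadjusted p under 0.05, both lower, and 0 by DESeq2). Beside Smad4, Mex3c (46434 bp away) differed by 0.05 (adjusted p = 0.527) and Elac1 (31258 bp away) by -0.10 (adjusted p = 0.656) in Smad4 KO against WT. Aagab, 2179 bp from Smad3, differed by -0.03 (adjusted p = 0.781), and Dym and Ctif beside Smad7 by -0.05 (adjusted p = 0.805) and -0.35 (adjusted p = 0.0762). In Smad4 KO+TGFb against WT, Zbtb7c beside Smad2 was higher (2.03 ± 0.66, adjusted p = 0.0498) and Elac1 lower (-0.51 ± 0.14, adjusted p = 0.0311). The Zbtb7c call was lost in 7 of 14 alternatives, among them without either Smad4 KO library (adjusted p = 0.0745 and 0.0759) or either Smad4 KO+TGFb library (0.13 and 0.127). The Elac1 call was lost in 5, among them without WT replicate 2 (0.15), Smad4 KO replicate 1 (0.0535), Smad4 KO replicate 2 (0.0524) and Smad4 KO+TGFb replicate 1 (0.145).

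Genes that act on the SMADs, and their targets, were described by role, each list beside the background of 30.3% called for genotype and 16.3% for TGF-β. The lists were chosen with earlier results of these data known, so their counts are descriptions and not independent evidence. Of 11 tested receptors of the TGF-β family, 3 were lower in Smad4 KO than in WT and 0 higher (0 at an unadjusted p under 0.05 and 0 by DESeq2). Tgfbr2, the type II receptor that binds TGF-β, fell 1.29-fold (log2 -0.37 ± 0.042, adjusted p = 0.00122). Acvr1c (ALK7) fell 2.21-fold (-1.14, adjusted p = 0.0118, but 0.0608 without WT replicate 2) and the BMP receptor Bmpr1a 1.19-fold (-0.25, adjusted p = 0.0217, but 0.0523 to 0.0973 without any 1 of the WT or Smad4 KO libraries). Without WT replicate 2 the count of 3 was 1. With TGF-β, 2 receptors were higher and 0 lower (1 at an unadjusted p under 0.05 and 0 by DESeq2): Tgfbr2 rose 1.47-fold (0.55 ± 0.042, adjusted p = 0.000427) and Acvr1 1.76-fold (0.82, adjusted p = 0.0115, but 0.0508 without Smad4 KO replicate 1 and 0.0678 without Smad4 KO+TGFb replicate 1). The median over the list was -0.20 for genotype and 0.00 for TGF-β.

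**Figure D5:**
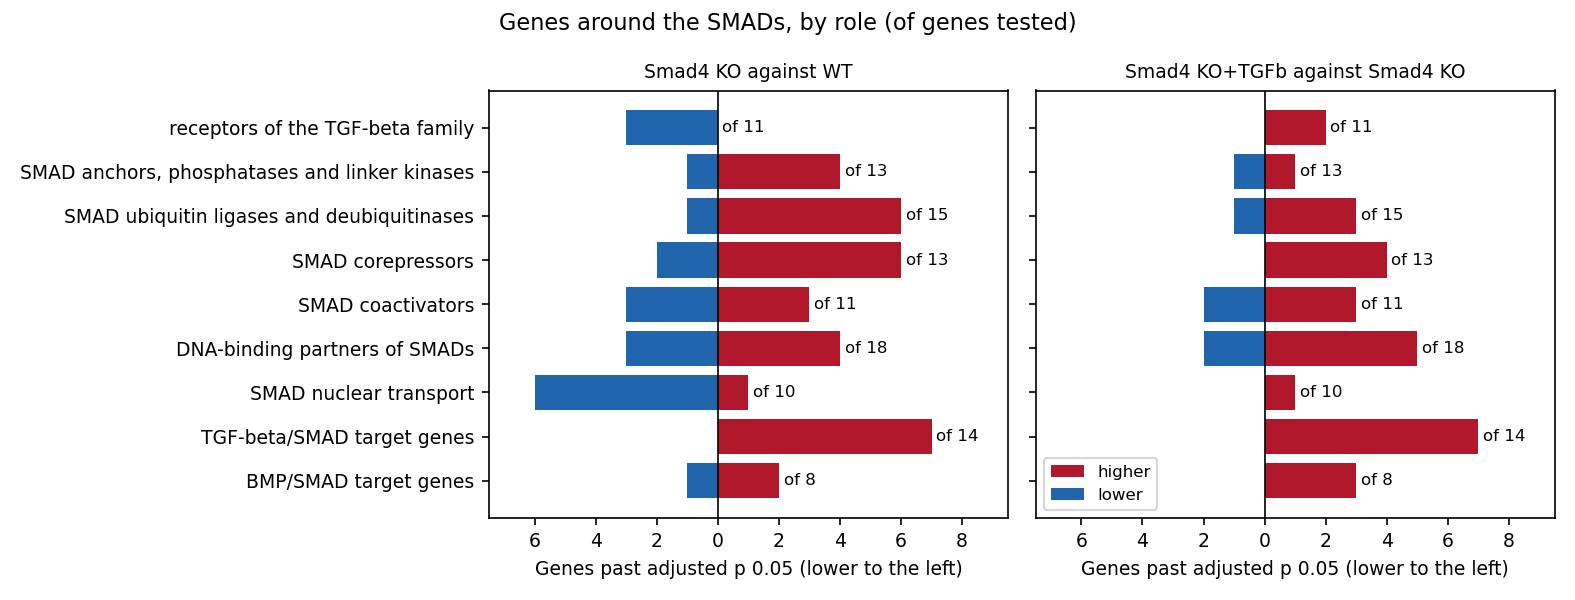
Number of genes past an adjusted p of 0.05 in each list of SMAD regulators, partners and targets, with higher genes to the right (red) and lower genes to the left (blue), and the number tested at the end of each bar, for Smad4 KO against WT and for Smad4 KO+TGFb against Smad4 KO. In the target list of the TGF-β branch 7 of 14 are higher in each panel and none is lower, and in the nuclear transport list 6 of 10 are lower in the first panel.

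Among 13 tested anchors, phosphatases and linker kinases of the SMADs, 4 were higher and 1 lower in Smad4 KO than in WT (median 0.13), a balance that turned to 2 higher and 3 lower when libraries were scaled by their totals alone. Ppm1a, a phosphatase of receptor SMADs, rose 1.4-fold (0.49 ± 0.055, adjusted p = 0.00111) and Ctdspl, a small CTD phosphatase, 1.29-fold (0.37 ± 0.053, adjusted p = 0.00302). The call of Cdk9, a kinase of the SMAD linker (0.30, adjusted p = 0.043), was lost in 9 of 14 alternatives, with an adjusted p of 0.18 and 0.0767 when WT replicate 1 or 2 was left out, 0.171 without Smad4 KO replicate 1, and 0.0715 and 0.0708 without Smad4 KO+TGFb replicate 1 and 2. The other genes called were Mtmr4, higher, and Pdp2, lower, named after their values were seen. The count of 4 was 2 without any 1 library except Smad4 KO replicate 2, and the count of 1 was 0 without any 1 of the 6. With TGF-β, Pdp1, a pyruvate dehydrogenase phosphatase, rose 1.96-fold (0.97 ± 0.12, adjusted p = 0.00338), while Ctdspl was 1.17-fold lower (-0.23, adjusted p = 0.0321) in a call that was lost without any 1 of the 6 libraries (adjusted p 0.0549 to 0.172). The median was -0.06.

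Of 15 tested ubiquitin ligases and deubiquitinases that act on SMADs, 6 were higher and 1 lower in Smad4 KO than in WT (median 0.20). The ligases Itch (0.47 ± 0.055, adjusted p = 0.00123), Smurf2 (0.46 ± 0.055, adjusted p = 0.00144) and Nedd4l (0.47 ± 0.059, adjusted p = 0.00172) rose by 1.39-fold, 1.37-fold and 1.39-fold. All are HECT-type ligases, and Smad7 brings Smurf2 to TGF-β receptors. The lower gene was Wwp1, another HECT ligase, named after its value was seen, and it was not called without WT replicate 2 or Smad4 KO replicate 1. With TGF-β, 3 were higher (Smurf1, Rnf111 and Trim33) and 1 lower (Wwp1), with a median of 0.05. Smurf1 rose 1.73-fold (0.79 ± 0.097, adjusted p = 0.00298). Trim33 rose 1.21-fold (0.28, adjusted p = 0.0255) and Wwp1 fell 1.28-fold (-0.35, adjusted p = 0.0272). Both of these calls were lost without any 1 of the Smad4 KO or Smad4 KO+TGFb libraries (adjusted p 0.0538 to 0.126 for Trim33 and 0.0677 to 0.14 for Wwp1). The count of 3 was 1 without Smad4 KO replicate 1, Smad4 KO+TGFb replicate 1 or Smad4 KO+TGFb replicate 2.

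Of 13 tested corepressors of the SMADs, 6 rose and 2 (Tgif2 and Sin3a, named after their values were seen) fell in Smad4 KO against WT, with a median of 0.23. The lower count was 4 with upper quartile scaling or with library totals alone. Skil, which encodes the SMAD-binding repressor SnoN and is itself a TGF-β target, rose 2.75-fold (1.46 ± 0.11, adjusted p = 0.000227). Pmepa1, a membrane protein that sequesters receptor SMADs and is also in the target list, rose 2.66-fold, from 14.3 to 37.9 CPM (1.41 ± 0.064, adjusted p = 2.32e-05), and the antiproliferative gene Tob1 2.22-fold (1.15 ± 0.077, adjusted p = 0.000134). The count of 2 lower genes was 0 when either WT library or Smad4 KO replicate 2 was left out, and 1 without any other library.

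With TGF-β, 4 corepressors were higher (Pmepa1, Tgif1, Ski and Ldlrad4, of which all but Ski are also in the target list) and 0 lower (0 at an unadjusted p under 0.05 and 0 by DESeq2), with a median of 0.18. Pmepa1 rose a further 4.86-fold to 184 CPM (2.28 ± 0.064, adjusted p = 1.34e-05). Tgif1, a homeodomain repressor, rose 1.47-fold (0.56, adjusted p = 0.00897, but 0.0555 without Smad4 KO+TGFb replicate 2). Ski rose 1.2-fold (0.26, adjusted p = 0.0144), a call lost without any 1 library of the compared groups (adjusted p 0.0567 to 0.0952). The count of 4 was 2 without Smad4 KO replicate 1 or Smad4 KO+TGFb replicate 1 and 1 without Smad4 KO+TGFb replicate 2.

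Of 11 coactivators, all tested, 3 were higher and 3 lower in Smad4 KO than in WT (median 0.18), and 2 and 4 with upper quartile scaling or with library totals alone. The acetyltransferases Kat2b and Ep300 rose 1.8-fold (0.85 ± 0.13, adjusted p = 0.00358) and 1.29-fold (0.37 ± 0.06, adjusted p = 0.00526). Smarca4, the ATPase BRG1 of the SWI/SNF complex, fell 1.13-fold (-0.18, adjusted p = 0.0143, but 0.0719 when WT replicate 2 and 0.063 when Smad4 KO replicate 2 was left out). The count of 3 lower genes was 0 without WT replicate 2 and 1 without any other library. With TGF-β, 3 were higher and 2 lower (median 0.07). Wwtr1, which encodes TAZ, the Hippo pathway effector related to Yap1, rose 1.69-fold (0.76 ± 0.083, adjusted p = 0.00182). Yap1 and Smarca4, the other higher genes, were named after their values were seen, and the count of 3 was 1 without any 1 of the 6 libraries. Trim24 (-0.41, adjusted p = 0.00836, but 0.0567 without Smad4 KO+TGFb replicate 1) and Ncoa1 (-0.32, adjusted p = 0.0167, but 0.0713 to 0.0898 without any 1 library of the compared groups) fell 1.33-fold and 1.25-fold.

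Of 18 tested DNA-binding partners, 4 were higher and 3 lower in Smad4 KO than in WT (median 0.05), but 4 and 5 with upper quartile scaling or with library totals alone. Klf5, a factor of proliferating crypt cells, rose 1.52-fold (0.60 ± 0.031, adjusted p = 4.06e-05) and Hnf4a, a factor of enterocyte differentiation, 1.12-fold (0.17 ± 0.021, adjusted p = 0.00187). The AP-1 member Jund fell 1.2-fold (-0.27 ± 0.038, adjusted p = 0.0028). The count of 4 was 2 without either Smad4 KO library, and the count of 3 was 1 without WT replicate 1. With TGF-β, 5 were higher and 2 lower (median 0.07). Runx1 rose 2.35-fold (1.24 ± 0.12, adjusted p = 0.00121), Fos 1.92-fold (0.94 ± 0.098, adjusted p = 0.00149) and Junb 1.83-fold (0.87 ± 0.08, adjusted p = 0.00088). Fos and Junb encode AP-1 subunits. Runx2 and Klf5, higher, and Foxo3 and Jund, lower, completed the calls and were named after their values were seen. The count of 2 lower genes was 1 without any 1 library except WT replicate 2.

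Nuclear transport factors gave 6 lower and 1 higher of 10 in Smad4 KO against WT (median -0.22). Over all genes 13.4% were lower and 16.9% higher there. The count of 6 was 4 without either WT library or Smad4 KO replicate 2, and 5 without any other library. The exportin Xpo1 fell 1.38-fold (-0.47 ± 0.071, adjusted p = 0.00393) and the importin Ipo7 1.28-fold (-0.35 ± 0.047, adjusted p = 0.00225). The higher gene was Ranbp3l, an export factor of the BMP-branch SMADs. Its deposited units summed to 18 over WT and 430 over Smad4 KO (means of 0.19 and 5.4 CPM). Its WT mean was below the floor of 12 units per library (0.229 and 0.274 CPM). Ranbp3l passed the filter on low counts through the deficient groups. No fold or p against WT is therefore given, and its call is no support for a rise. With TGF-β, Ranbp3l was the only gene called (median 0.03). It rose 2.08-fold to 11.3 CPM (1.06 ± 0.21, adjusted p = 0.0187), and the call was lost without any 1 library of the compared groups (adjusted p 0.0543 to 0.113). No transport gene was lower with TGF-β by edgeR, with 1 at an unadjusted p under 0.05 and 1 by DESeq2.

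Of 14 tested targets of the TGF-β branch, a list that includes Smad7, 7 were higher in Smad4 KO than in WT and 0 lower (2 at an unadjusted p under 0.05 and 2 by DESeq2), with a median of 0.28. Cdkn2b, the cell cycle inhibitor p15, rose 3.88-fold, from 25.2 to 97.9 CPM (1.96 ± 0.059, adjusted p = 4.62e-06), beside Skil and Pmepa1 above. With TGF-β, again 7 were higher and 0 lower (1 at an unadjusted p under 0.05 and 0 by DESeq2), with a median of 0.47. Ccn2, the matricellular growth factor CTGF, rose 4.3-fold, from 16.5 to 70.9 CPM (2.11 ± 0.24, adjusted p = 0.00211). Itgb6, an integrin subunit that takes part in the activation of latent TGF-β, rose 1.91-fold (0.93 ± 0.12, adjusted p = 0.00381). Without 1 library at a time the higher counts ran from 5 to 7 and from 5 to 8.

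Of 8 tested targets of the BMP branch, a list that includes Smad6 and Smad7, 2 were higher (Id1 and Smad7) and 1 lower (Id2) in Smad4 KO than in WT, with a median of 0.00. Id1 and Id2 encode inhibitors of bHLH factors. Id1 rose 1.42-fold (0.51, adjusted p = 0.0263) and Id2 fell 1.33-fold (-0.41, adjusted p = 0.022). The Id1 call was lost without any 1 library except WT replicate 1 (adjusted p 0.055 to 0.117) and the Id2 call without WT replicate 2 (0.106), Smad4 KO replicate 1 (0.072) or Smad4 KO replicate 2 (0.092). With TGF-β, 3 were higher and 0 lower (0 at an unadjusted p under 0.05 and 0 by DESeq2), with a median of 0.41. Id1 rose 2.77-fold, from 9.35 to 25.9 CPM (1.47 ± 0.13, adjusted p = 0.000721), and Id2 1.72-fold (0.78 ± 0.099, adjusted p = 0.00333), beside Smad7. These calls were kept in all settings, and Noggin was in the medium of both groups.

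In Smad4 KO+TGFb against WT, which shares its libraries with both comparisons above, 3 receptors were higher and 2 lower, and 4 and 1 of the anchors, phosphatases and linker kinases, beside 39.7% called among all genes. The ligases and deubiquitinases gave 8 higher and 1 lower, the corepressors 7 and 1, the coactivators 6 and 2, the DNA-binding partners 8 and 4, and nuclear transport 1 and 5. Of the 14 TGF-β-branch targets 10 were higher and 1 lower (median 1.06, beside -0.02 over all genes). Of the 8 BMP-branch targets 3 were higher and 0 lower (1 at an unadjusted p under 0.05 and 1 by DESeq2). Without 1 library at a time, the target counts of 10 and 3 ran from 10 to 11 and from 2 to 3. The count of 1 lower TGF-β-branch target was 0 without either WT library or either Smad4 KO+TGFb library. The higher counts of 3 receptors and 4 anchors, phosphatases and kinases were 1 and 2 without WT replicate 1 or either Smad4 KO+TGFb library. Upper quartile scaling also gave 1 higher receptor. The count of 2 lower coactivators was 0 without WT replicate 2 or either Smad4 KO+TGFb library and 1 without WT replicate 1. Lower counts of 4 partners and 5 transport genes were 2 and 3 without Smad4 KO+TGFb replicate 2. The shifts in enterocyte, stem, Paneth and goblet markers given above accompanied all of these lists, and their part was not tested.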

How the data were processed

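The files hold 1 table of estimated counts per Ensembl gene, which the authors deposited as whole numbers for 6 libraries. The submitters' processing notes name the build GRCm38 (mm10), the aligner HISAT2 2.1.0, the assembler and quantifier StringTie 1.3.3b, and SAMtools 1.9 and FastQC 0.11.9. Read length, annotation release, strand setting and rounding were not given in the sources used here. Without the strand setting, a gene and an antisense partner cannot be told apart. Multiples of 4 made up 42.3% of values between 1 and 24, against 25% if spread evenly. About 4 units per fragment were therefore assumed, and the floor of 3 fragments was set at 12 units.

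Libraries were grouped by their titles. Of 31227 genes, 15503 passed filterByExpr. Counts were scaled by TMM and tested with edgeR 4.0.16 (glmQLFit and glmQLFTest, 2-sided, limma 3.58.1, R 4.3.3) in 1 fit of all 6 libraries, with no term but group and 3 residual degrees of freedom. The threshold was a Benjamini-Hochberg adjusted p of 0.05, over all genes tested. CPM are TMM-scaled counts per 1e+06, and the error of a log2 fold change is its SE from the fit. The steps were run on simulated data with 200 genes changed in Smad4 KO, fewer than were called here. That run checked the working of the steps only and gives no error rate for these libraries. Alternatives were DESeq2 1.42.0, other scalings, no filter, values divided by 4, fits to the 4 compared libraries, a replicate block and each library left out in turn.

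Symbols were found for 31130 genes and not for 97. Ctgf was found as Ccn2, and Hgs, whose symbol 2 IDs share, was left out. Promoter sequences are from RefSeq. Named genes are all members, up to 3 of each list with the smallest adjusted p in each of the first 2 comparisons, the 2 genes nearest to each member in profile, and the nearest protein-coding neighbours. The members and lists were chosen with earlier results of these data known. Replicate numbers did not pair the samples.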

Additional observations from a re-analysis of the deposited data

How the results depend on the processing

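Of the 21 member results, none that passed changed direction under the 14 alternatives, and the calls lost or gained are given with each gene in the report. With 1 library left out, which leaves its group with 1 library assumed to vary like the others, the genes called ran from 3231 to 4305 for Smad4 KO against WT (2015 to 2438 higher, 1166 to 1867 lower), from 1504 to 2304 for Smad4 KO+TGFb against Smad4 KO (656 to 1108 higher, 848 to 1196 lower) and from 4554 to 6012 for Smad4 KO+TGFb against WT. Members called ran from 3 to 4, from 1 to 3 (1 to 2 higher, 0 to 1 lower) and stayed at 3. Lower genes for genotype were 1166 and 1227 when WT replicate 1 or 2 was left out, and 1387 when Smad4 KO replicate 1 was. In a fit to the 4 compared libraries, 1 member was lower with TGF-β. Replicate numbers gave correlations of 0.00135 to 0.0138 between deviations from group means. The replicate block called 4184, 2153 and 5667 genes and 3, 2 and 4 members, and DESeq2 called 5305, 3238 and 6566 genes. No scaling moved the median of all genes by more than -0.09 (log2). Of 45 named results in the lists, 30 kept their call throughout, 12 lost it only when a library was left out and 0 reversed. Shares of the SMAD pool depended on the length used. With no division by length, the TGF-β-branch receptor SMADs held 32.2%, 49.5% and 47.1% in WT, Smad4 KO and Smad4 KO+TGFb, Smad4 35.7%, 8.42% and 9.17%, the inhibitory SMADs 2.33%, 4.66% and 10%, and the BMP branch 29.8% in WT and 33.7% in Smad4 KO+TGFb. With the longest coding transcript as length, the TGF-β branch held 23.6%, 42.3% and 41.1% in WT, Smad4 KO and Smad4 KO+TGFb, and the BMP branch 27.8%, 39.2% and 33.6%. In WT the BMP branch thus stood above the TGF-β branch, the reverse of the order by exon length (22.6% and 25.4%). Smad4 then held 45.9% in WT and 12.6% in Smad4 KO, and the inhibitory SMADs 5.84% in Smad4 KO and 12% in Smad4 KO+TGFb. Depth limits Smad6 and Smad9 above all.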
